A study of Homo sapiens with 6 samples.

Results

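The glutathione transferases examined here were 10 genes of 18404 tested. They were chosen by symbol, with earlier results of these data known. The enzymes of GSTA4, GSTP1, GSTO1, GSTZ1, GSTM3 and GSTM4 are cytosolic. That of GSTK1 is found in mitochondria and peroxisomes, and those of MGST1, MGST2 and MGST3 sit in membranes. Each of the 10 genes was read by 1 probe set of its own, and 0 probe sets named a member together with another gene. Their RNA levels were read in MEC-1, a line of B cells from a chronic lymphocytic leukemia, which had received hairpin RNA (shRNA) by lentivirus. The hairpin was directed against UGT2B17, a glucuronosyltransferase that conjugates androgens and drugs, in 3 samples (knockdown) and had a scrambled sequence in the other 3 of the 6 samples, with 1 array each. All cells were grown in RPMI with fetal calf serum, without phenol red or antibiotics. The study describes its replicates as independent, but no label says that they were separate cultures or how many hairpins were used, so the error behind each p-value is the spread among 3 arrays of 1 cell line and may be technical.

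Glutathione transferases join the thiol of glutathione to electrophilic drugs, aldehydes and lipid peroxidation products, a step of drug metabolism that runs beside glucuronidation. The cytosolic enzymes form classes named alpha, mu, pi, omega and zeta, the mitochondrial kappa enzyme has a separate origin, and the membrane enzymes belong to a family that also makes leukotrienes and prostaglandins. In lymphoid leukemias the family is known mainly for its handling of alkylating drugs. Many of its genes carry antioxidant response elements, short sites for the transcription factor NRF2.

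Promoter windows are shown for the pair of genes that passed the test, GSTA4 and MGST3, and for GSTP1, the pi class gene whose element is the best known of the family. Each window, from RefSeq on GRCh38.p14, runs from 250 bases before to 50 bases after the annotated start on the gene's own strand, and capitals mark matches to the motifs searched.
GSTA4 (chr6:52995235-52995534, minus strand): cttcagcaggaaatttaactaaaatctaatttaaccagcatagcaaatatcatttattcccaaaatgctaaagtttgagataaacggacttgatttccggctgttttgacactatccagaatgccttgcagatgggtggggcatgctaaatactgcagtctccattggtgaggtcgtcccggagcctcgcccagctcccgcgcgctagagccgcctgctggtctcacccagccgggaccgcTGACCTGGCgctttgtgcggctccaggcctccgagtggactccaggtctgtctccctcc
MGST3 (chr1:165630984-165631283, plus strand): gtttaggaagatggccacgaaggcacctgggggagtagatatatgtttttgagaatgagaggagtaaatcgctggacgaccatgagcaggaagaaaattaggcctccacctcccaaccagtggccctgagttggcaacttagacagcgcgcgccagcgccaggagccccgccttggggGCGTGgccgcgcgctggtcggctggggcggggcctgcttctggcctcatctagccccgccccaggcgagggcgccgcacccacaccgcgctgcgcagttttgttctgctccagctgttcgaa
GSTP1 (chr11:67583562-67583861, plus strand): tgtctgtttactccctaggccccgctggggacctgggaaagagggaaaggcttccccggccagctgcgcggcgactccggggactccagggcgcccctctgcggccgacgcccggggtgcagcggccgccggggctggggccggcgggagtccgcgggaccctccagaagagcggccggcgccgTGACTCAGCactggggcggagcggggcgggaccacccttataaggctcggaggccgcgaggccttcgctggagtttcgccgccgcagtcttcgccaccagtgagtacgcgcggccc
The motifs, searched on both strands, were the antioxidant response element core TGACNNNGC, the AP-1 site TGACTCA or TGAGTCA, the xenobiotic response element core GCGTG, and TGATGNAA, the core of the amino acid response element. The GSTA4 window held 1 antioxidant core, TGACCTGGC, beginning 9 bases upstream of the start. The MGST3 window held 1 xenobiotic core, 72 bases upstream, and no other match. In the GSTP1 window the antioxidant core TGACTCAGC, 66 bases upstream, contained an AP-1 site. The table held 11 windows of 9 members, 3 of them for MGST1. The antioxidant core was in 4 of the 11 windows (GSTA4, GSTO1, GSTP1 and 1 of MGST1), against 13.3% of 35116 promoter windows of the same length. In the MGST1 window the core lay after the annotated start. The xenobiotic core was in 4 of the 11 windows (GSTM3, GSTM4, GSTZ1 and MGST3), against 36.5% of all windows, the AP-1 site in 1, against 4.95%, and the amino acid core in 0, against 3.62%. These matches describe letters in the windows, and binding was not measured.

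UGT2B17, read first as a check of the labels, was at 3.19, 3.27 and 3.17 log2 units on the knockdown arrays, against 3.95, 3.69 and 3.91 on the scrambled arrays. It fell by 0.64 ± 0.08 log2 units (SE; limma, Benjamini-Hochberg adjusted p = 0.00654), on a dim probe set at percentile 8.02 of all deposited probe sets. Brighter probe sets that name UGT2B17 together with close copies fell further, by 1.34 ± 0.09 where shared with UGT2B15 and by 1.504 ± 0.157 where shared with 4 relatives (SE; adjusted p = 0.0137 and 0.0265 over all deposited probe sets), while one shared with 6 other genes had a difference of −0.21 ± 0.06 and did not pass (0.226). On these the copies cannot be told apart. Pearson correlations between arrays ran from 0.991 to 0.996. Scrambled replicate 3 lay furthest from its group mean over the genes tested, at a root mean square of 0.138 log2 units against 0.077 to 0.112 for the other arrays. The 6 measured B cell markers of 8 listed lay at percentiles 88.6 to 98.8, and none of them passed. Of 27 measured markers of T and NK cells, myeloid cells, epithelial cells and fibroblasts, erythroid cells and platelets, and hepatocytes, 1 passed, KLRD1, a receptor of NK cells, which fell by 0.64 (adjusted p = 0.0062). Of the 8 T and NK cell markers, 6 had a difference above 0 and 2 below. NKG7 among them had 0.25 ± 0.06 (SE) and did not pass (limma, adjusted p = 0.0752). The mean level of the 8 T and NK cell markers was 5.64 to 5.76 on the knockdown arrays and 5.69 to 5.76 on the scrambled arrays, and any part of such cells in the results was not tested. The mean level of the 4 markers of hepatocytes, cells rich in alpha class transferases, was 4.72 to 4.85 on the knockdown arrays and 4.78 to 4.84 on the scrambled arrays.

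GSTA4 and MGST3 were higher in UGT2B17 knockdown cells, and the other 8 transferases did not pass the test. Thus 2 of 10 members rose and 0 fell (limma over all genes, Benjamini-Hochberg adjusted p under 0.05), where 3.61% of all genes passed (1.92% higher and 1.69% lower). The members were chosen with earlier results of these data known, so these shares describe them and are no test. Before adjustment, 3 of 10 members (GSTA4, MGST3 and GSTM3) had a p under 0.05, against 3341 of 18404 genes. The median log2 fold change of the 10 members, knockdown minus scrambled, was −0.02, beside −0.002 for all genes. For 4 of 10 members (GSTA4, MGST3, GSTM3 and GSTM4) all knockdown arrays lay above all scrambled arrays, as for 2165 of 18404 genes. In either direction, the groups did not overlap for 24.8% of all genes. The same shares of all genes are the background of the counts given for gene lists below. In bulk RNA of a culture, fewer expressing cells and less RNA per cell cannot be told apart. The plot of levels by array shows the 10 members on axes of equal span.

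**Figure D1:**
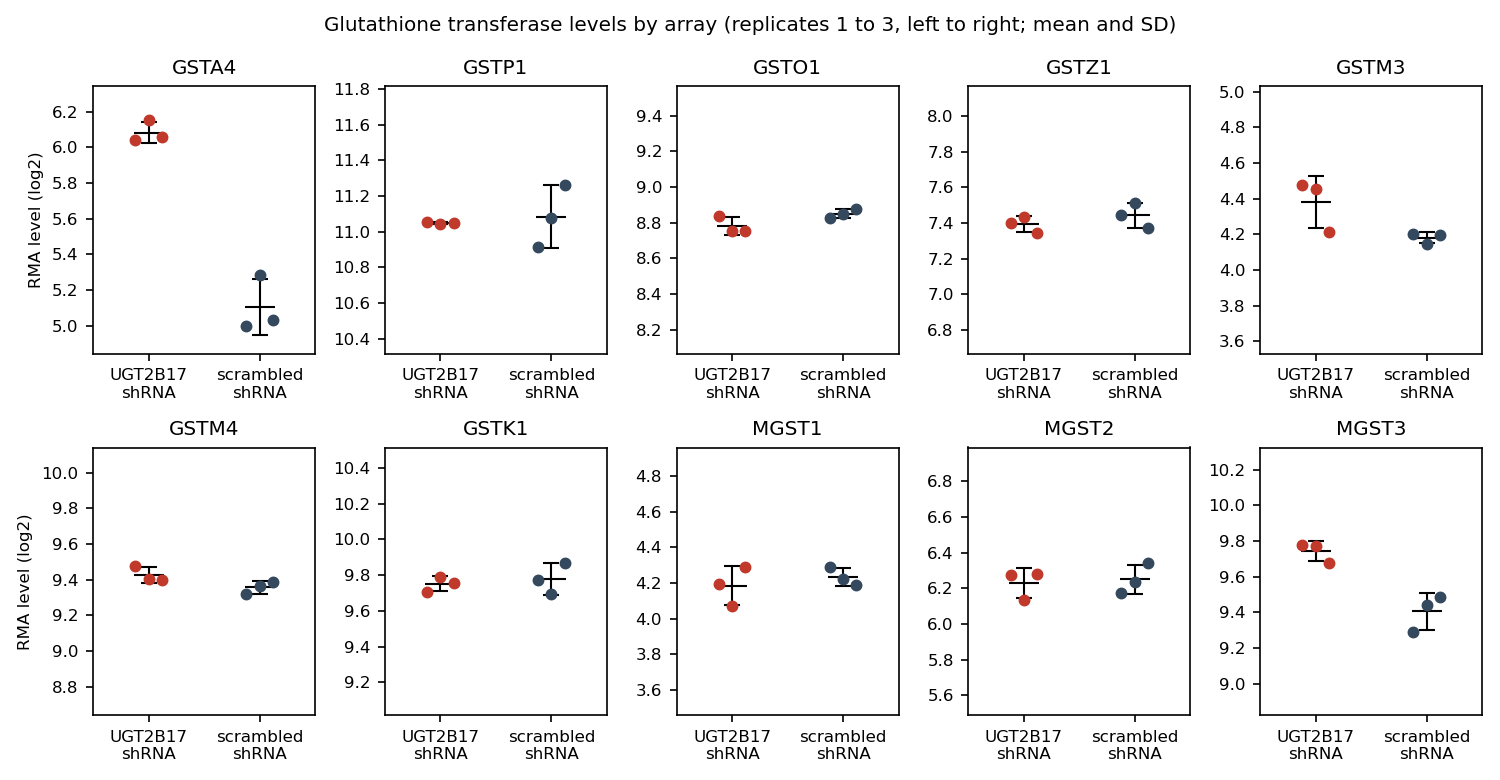
RMA levels (log2 units) of the 10 glutathione transferases on each array, UGT2B17 knockdown to the left of scrambled shRNA, with the mean and SD of 3 arrays per group. All y axes span the same range of log2 units, and the groups are clearly apart for GSTA4 (6.04 to 6.15 against at most 5.28) and MGST3 (9.68 to 9.78 against 9.29 to 9.49).

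GSTA4, an alpha class enzyme that conjugates hydroxynonenal, a toxic aldehyde from peroxidised lipids, had the largest difference of the 10 members. Its level was 6.04, 6.15 and 6.06 log2 units in the knockdown arrays, against 4.9996, 5.28 and 5.03 in the scrambled arrays. The lowest knockdown array stood above the highest scrambled array, and the scrambled arrays were spread more widely, over 0.28 log2 units against 0.11. The group means were 6.08 ± 0.06 with the knockdown and 5.11 ± 0.16 with scrambled shRNA (SD, n = 3 each). GSTA4 rose by 0.98 ± 0.09 log2 units (SE; 95% interval 0.78 to 1.18), which is 1.97-fold (1.72 to 2.26; limma, adjusted p = 0.00170). The difference lay between 0.84 and 1.07 in the 14 alternatives that could be fitted for this gene, and each of them passed (highest adjusted p 0.0229). The probe set was at percentile 37.6 of all deposited probe sets, and RMA understates fold changes near background.

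The other alpha class genes lie near GSTA4 on chromosome 6, and none of those measured passed. GSTA1 and GSTA2, the main alpha enzymes of liver, had log2 differences of −0.10 ± 0.09 and 0.05 ± 0.08 (SE; adjusted p = 0.627 and 0.802). GSTA3, known for isomerising steroid precursors, read 4.28 ± 0.04 in knockdown cells and 4.38 ± 0.15 in scrambled cells (SD, n = 3 each; adjusted p = 0.593 in limma). With array weights GSTA3 passed as lower, at −0.22 (limma, adjusted p = 0.0282). GSTA5 had a difference of −0.10 ± 0.08. The probe sets of these 4 genes were dim, between percentiles 8.91 and 21.1, and since the genes are close copies of each other their signals may be shared.

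MGST3, a membrane enzyme with glutathione peroxidase and leukotriene C4 synthase activity, was the other member that passed. It read 9.78, 9.77 and 9.68 log2 units in the knockdown arrays, against 9.29, 9.44 and 9.49 in the scrambled arrays. The groups did not overlap, with scrambled replicate 1 lowest and the other scrambled arrays closer to the knockdown arrays. MGST3 rose by 0.34 ± 0.07 log2 units (SE; 95% interval 0.17 to 0.51), or 1.26-fold (limma, adjusted p = 0.0435). The direction held in all 15 alternatives, with differences of 0.28 to 0.38, but the call held in 7 of them. It was lost without knockdown replicate 1, 2 or 3 (adjusted p = 0.154, 0.172 and 0.109), without scrambled replicate 1 or 2 (adjusted p = 0.0775 and 0.119), with arrays centred on their medians (0.0819), when all deposited probe sets were tested together (0.129), and in 1 alternative design given among the processing alternatives. Without scrambled replicate 3, the array furthest from its group, the call held.

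The other membrane enzymes did not pass. MGST1, which reduces lipid hydroperoxides in the endoplasmic reticulum and outer mitochondrial membrane, read 4.19, 4.07 and 4.29 log2 units in the knockdown arrays, against 4.29, 4.23 and 4.19 in the scrambled arrays. The groups overlapped, and the probe set was dim, at percentile 17.5. The log2 difference of MGST1 was −0.05 ± 0.07 (SE; 95% interval −0.22 to 0.12; adjusted p = 0.790). MGST2, which also makes leukotriene C4, read 6.27, 6.13 and 6.28 in the knockdown arrays, against 6.18, 6.23 and 6.34 in the scrambled arrays. Its difference was −0.02 ± 0.07 (95% interval −0.19 to 0.15; adjusted p = 0.923), and the groups again overlapped.

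GSTM3, a mu class enzyme best known from testis and brain, was higher without passing the test. Its level was 4.48, 4.45 and 4.22 log2 units in the knockdown arrays, against 4.20, 4.15 and 4.20 in the scrambled arrays. Knockdown replicates 1 and 2 stood apart, while replicate 3 was close to the scrambled arrays. The difference was 0.20 ± 0.08 (SE; 95% interval 0.02 to 0.39), with an unadjusted p of 0.0371 and an adjusted p of 0.238 in limma. It passed in 1 of 14 alternatives, array weights (adjusted p = 0.0364), a setting that called 3511 genes in all. That setting gave scrambled replicate 2 a weight of 6.12, against 0.55 and 0.25 for scrambled replicates 1 and 3. The scrambled level there rested mainly on replicate 2, for every gene said to pass with array weights. The probe set was dim, at percentile 18.4.

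GSTM4, another mu class enzyme, read 9.48, 9.40 and 9.40 log2 units in the knockdown arrays, against 9.32, 9.37 and 9.39 in the scrambled arrays. The groups did not overlap but nearly touched, and the difference of 0.07 ± 0.06 (SE; 95% interval −0.07 to 0.21) did not pass (adjusted p = 0.625). GSTM1, GSTM2 and GSTM5, the remaining mu class genes of the same cluster on chromosome 1, had differences of 0.03 ± 0.08, 0.05 ± 0.09 and −0.006 ± 0.07, with adjusted p from 0.845 to 0.981. Mu class genes are close copies of each other, so the reading of any single gene among them is uncertain.

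GSTP1, the pi class enzyme that also binds the stress kinase JNK, was the same on every knockdown array to within 0.014 log2 units. It read 11.06, 11.04 and 11.05 in the knockdown arrays, against 10.91, 11.08 and 11.26 in the scrambled arrays. The scrambled arrays spread over 0.35 log2 units around the knockdown values, with replicate 1 lowest and replicate 3 highest. The difference of GSTP1 was −0.03 ± 0.09 (SE; 95% interval −0.24 to 0.17), a fold between 0.847 and 1.12 (limma, adjusted p = 0.885). Without scrambled replicate 3 the difference was 0.05 and did not pass (adjusted p = 0.753).

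GSTO1, an omega class enzyme that reduces dehydroascorbate and removes glutathione from proteins, read 8.84, 8.75 and 8.75 log2 units in the knockdown arrays, against 8.83, 8.85 and 8.88 in the scrambled arrays. Knockdown replicate 1 lay inside the scrambled range and the other knockdown arrays lay below it, and the difference of −0.07 ± 0.06 (SE; 95% interval −0.21 to 0.07) did not pass (adjusted p = 0.632). Its neighbour GSTO2, the second omega gene, had a difference of 0.22 ± 0.08, with no overlap between the groups, and did not pass (adjusted p = 0.172). GSTT1, of the theta class, had a difference of −0.05 ± 0.07 (adjusted p = 0.791).

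GSTZ1, the zeta class enzyme that isomerises maleylacetoacetate in tyrosine breakdown, read 7.40, 7.44 and 7.35 log2 units in the knockdown arrays, against 7.45, 7.51 and 7.37 in the scrambled arrays. The difference was −0.05 ± 0.07 (SE; 95% interval −0.20 to 0.10; adjusted p = 0.769), and the groups overlapped. Of 9 measured genes of phenylalanine and tyrosine breakdown, 0 passed in limma and 3 had an unadjusted p under 0.05. These were QDPR, a pteridine reductase, at −0.20 ± 0.08, FAHD2A, of the fumarylacetoacetate hydrolase family, at 0.23 ± 0.09, and PCBD1, a pterin dehydratase, at 0.17 ± 0.07 (adjusted p = 0.214, 0.231 and 0.243). GSTK1, the kappa class enzyme, read 9.71, 9.79 and 9.76 in the knockdown arrays, against 9.78, 9.69 and 9.87 in the scrambled arrays. Its difference of −0.03 ± 0.07 (95% interval −0.19 to 0.13) did not pass either (adjusted p = 0.885). Over the 8 members that did not pass, the 95% intervals of the difference reached from −0.24 to 0.39 log2 units.

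**Figure D2:**
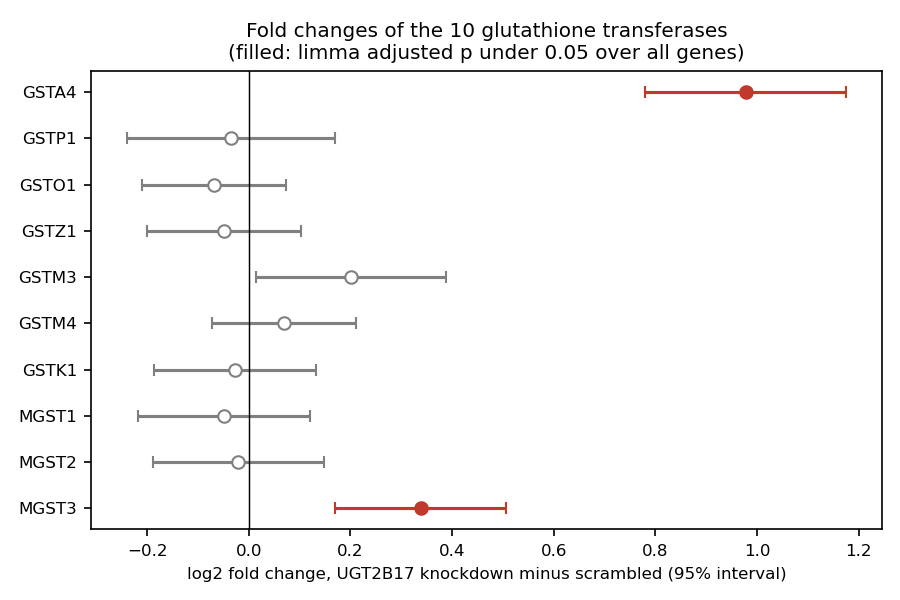
Log2 fold change of each glutathione transferase, UGT2B17 knockdown minus scrambled shRNA, with the 95% interval from limma (n = 3 arrays each); filled points passed at an adjusted p under 0.05 over all genes. GSTA4 at 0.98 and MGST3 at 0.34 passed, and the other 8 lie between −0.07 and 0.20.

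Of the other genes of the transferase superfamily and the membrane family, 22 of 26 listed were measured. Among these, 2 fell, 0 rose and 20 did not pass, where 1.69% of all genes fell. Their median log2 difference was −0.01, and 4 had an unadjusted p under 0.05, against 3341 of 18404 genes. HPGDS, the sigma class enzyme that makes prostaglandin D2 from its precursor, read 3.41, 3.35 and 3.40 in the knockdown arrays, against 3.85, 3.68 and 3.83 in the scrambled arrays. HPGDS fell by 0.40 ± 0.07 log2 units (SE; limma, adjusted p = 0.0198), on a dim probe set at percentile 8.73. The call of HPGDS was lost without knockdown replicate 1, 2 or 3 (adjusted p = 0.0787, 0.104 and 0.0837) and with all deposited probe sets (0.0747). CLIC2, a chloride intracellular channel protein with a transferase fold, fell by 0.44 ± 0.08 (adjusted p = 0.0243). Its call was lost without any 1 of the 3 knockdown arrays or scrambled replicate 1 or 2 (adjusted p 0.0513 to 0.101). GDAP1, a transferase-like protein of the outer mitochondrial membrane, had a difference of −0.53 ± 0.18 and did not pass (adjusted p = 0.170); scrambled replicate 3 stood highest, at 8.30 against 7.54 and 7.60.

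Glutathione itself is built from cysteine, which cells take up as cystine. Of 22 listed genes of glutathione synthesis and turnover, 20 were measured. Among these, 4 rose, 0 fell and 16 did not pass, where 1.92% of all genes rose. Their median log2 difference was 0.05, and 6 had an unadjusted p under 0.05, against 3341 of 18404 genes. The list was chosen with earlier results of these data known, so setting it beside all genes is no test. The 4 genes that rose act in cystine uptake (SLC7A11 and SLC3A2), cysteine formation (CTH) and glutathione breakdown (CHAC1). SLC7A11, the cystine exchanger, read 8.48, 8.59 and 8.57 in the knockdown arrays, against 7.59, 7.64 and 7.46 in the scrambled arrays, a rise of 0.98 ± 0.07 (SE; adjusted p = 0.000834). SLC3A2, its partner chain, rose by 0.31 ± 0.06 (adjusted p = 0.0346). CTH, which forms cysteine from cystathionine, rose by 0.85 ± 0.09, and CHAC1, which cleaves glutathione, by 0.64 ± 0.09. The call of SLC3A2 was lost without any 1 of the knockdown arrays or scrambled replicate 1 or 2 (adjusted p 0.0675 to 0.148), and that of CHAC1 without knockdown replicate 1 or 2 (adjusted p = 0.0512 and 0.0588). Of the enzymes that assemble glutathione, GCLC, the catalytic subunit of the rate-limiting ligase, had a difference of 0.27 ± 0.06 and did not pass (adjusted p = 0.0583). GCLC passed in 4 of 15 alternatives. These were without scrambled replicate 3 (0.31, adjusted p = 0.0306), quantile normalised again (0.0376), brighter genes only (0.0306) and array weights (0.0021). GCLM, its modifier subunit, had 0.15 ± 0.10 (adjusted p = 0.474), and GSS, glutathione synthetase, had −0.10 ± 0.09 (adjusted p = 0.653).

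The list of glutathione peroxidases and glutaredoxins, which does not hold MGST3, gave no call. Of 14 glutathione peroxidases, glutaredoxins and related genes, 0 passed in limma and 2 had an unadjusted p under 0.05, with a median of −0.04. PRDX6, a peroxiredoxin that uses glutathione, had the smallest p among them, with a difference of −0.22 ± 0.06 (SE; adjusted p = 0.107). TXNDC12, an oxidoreductase of the endoplasmic reticulum, had −0.15 ± 0.06 (adjusted p = 0.248), and GLRX5, a mitochondrial glutaredoxin of iron-sulfur cluster assembly, had −0.31 ± 0.14 (adjusted p = 0.287). For GLRX5 scrambled replicate 3 stood highest, at 10.73 against 10.13 and 10.20 for scrambled replicates 1 and 2. GPX4, which reduces lipid hydroperoxides in membranes, had 0.05 ± 0.07 (adjusted p = 0.734). Of 17 measured genes of NADPH supply and glutathione reduction of 18 listed, 1 rose and 16 did not pass, with a median of −0.06. At an unadjusted p under 0.05 there were 7, and the groups did not overlap for 3 genes that were higher and 5 that were lower in knockdown cells. Among all 18404 genes, 3341 had such a p, and the groups did not overlap for 2165 that were higher and 2402 that were lower. A rise was called for 1.92% of all genes. The gene that rose was ALDH1L2, a mitochondrial folate dehydrogenase that forms NADPH, at 1.18 ± 0.12 (adjusted p = 0.00307). PGD, a dehydrogenase of the pentose phosphate pathway, had −0.35 ± 0.10 and did not pass (adjusted p = 0.0966). Scrambled replicate 3 was also the highest array of PGD, at 11.06 against 10.68 and 10.77 for scrambled replicates 1 and 2. MTHFD2, a mitochondrial folate dehydrogenase, had 0.24 ± 0.06 and did not pass (adjusted p = 0.0825). MTHFD2 passed in 5 of 15 alternatives, among them array weights (adjusted p = 0.0046) and without scrambled replicate 3 (0.28, adjusted p = 0.0484). GSR, glutathione reductase, had a difference of 0.08 ± 0.07 (adjusted p = 0.593).

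Steps downstream of conjugation showed no called gene. Of 19 measured genes of conjugate export and the mercapturic acid pathway of 23 listed, 0 passed in limma and 1 had an unadjusted p under 0.05, with a median of 0.0006 log2 units. ABCC1, the main exporter of glutathione conjugates, read 10.04 ± 0.02 in knockdown cells and 10.12 ± 0.06 in scrambled cells (SD, n = 3 each; limma, adjusted p = 0.592). The gene with the unadjusted p under 0.05 was KYAT3, a cysteine conjugate beta-lyase, with a difference of −0.15 ± 0.06 (SE; adjusted p = 0.253) and no overlap between the groups. The aminoacylases ACY1 and ACY3, of which ACY3 acts on mercapturates, had −0.16 ± 0.09 and 0.23 ± 0.11 (adjusted p = 0.370 and 0.285). Of 26 measured genes of aldehyde and lipid peroxide removal of 28 listed, some of which share substrates with GSTA4, 0 passed and 4 had an unadjusted p under 0.05, with a median of −0.06. PTGR2, a reductase of oxidised prostaglandins, had 0.33 ± 0.09 (adjusted p = 0.0946), AKR7A2, an aldehyde reductase, −0.20 ± 0.07 (adjusted p = 0.166) and ALDH3B1, an aldehyde dehydrogenase, 0.17 ± 0.06 (adjusted p = 0.211).

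Among 24 measured NRF2 regulators and other NRF2 targets of 27 listed, 1 rose, 1 fell and 22 did not pass, with a median of 0.08 log2 units. At an unadjusted p under 0.05 there were 12, and the groups did not overlap for 9 genes that were higher and 4 that were lower in knockdown cells. Among all 18404 genes, 3341 had such a p, and the groups did not overlap for 2165 that were higher and 2402 that were lower. Calls made up 1.92% (higher) and 1.69% (lower) of all genes. KEAP1, the adaptor through which NRF2 is degraded, read 8.84, 8.74 and 8.90 in the knockdown arrays, against 9.17, 9.09 and 9.35 in the scrambled arrays. It fell by 0.38 ± 0.08 (SE; limma, adjusted p = 0.0455), a call lost when any 1 of the 6 arrays was left out (adjusted p 0.0585 to 0.184). NFE2L1, an NRF2 relative that drives proteasome genes, rose by 0.29 ± 0.06 (adjusted p = 0.0370), a call lost without any 1 of the knockdown arrays or scrambled replicate 1 or 2 (adjusted p 0.0663 to 0.146). SQSTM1, an autophagy receptor that binds KEAP1, had a difference of 0.24 ± 0.06 and did not pass (adjusted p = 0.0631). SQSTM1 passed in 3 of 15 alternatives, among them brighter genes only (adjusted p = 0.0303) and array weights (0.0054). Of the 24 genes, 16 lay above 0 and 8 below, where 9074 of 18404 genes lay above 0. HMOX1, heme oxygenase, had 0.31 ± 0.08 (adjusted p = 0.0695) and TXNRD1, thioredoxin reductase, −0.43 ± 0.11 (adjusted p = 0.0772), and neither passed. HMOX1 passed among brighter genes only (adjusted p = 0.0439) and with array weights (0.0032). TXNRD1 passed at −0.52 without scrambled replicate 1 (adjusted p = 0.0430) and with array weights (0.0074).

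MGST2 and MGST3 act beside the leukotriene enzymes, of which 16 of 19 listed were measured together with prostaglandin enzymes and receptors. Of these, 1 rose, 2 fell and 13 did not pass, where 1.92% of all genes rose and 1.69% fell. Their median was −0.003, and 5 had an unadjusted p under 0.05, against 3341 of 18404 genes. ALOX5, the lipoxygenase that starts leukotriene synthesis, rose by 0.39 ± 0.09 log2 units (SE; adjusted p = 0.0435), and CYSLTR1, a receptor of cysteinyl leukotrienes, fell by 0.32 ± 0.06 (adjusted p = 0.0295), besides HPGDS. The call of ALOX5 was lost without any 1 array except scrambled replicate 3 (adjusted p 0.0564 to 0.165), and that of CYSLTR1 without any 1 of the knockdown arrays or scrambled replicate 2 (adjusted p 0.114 to 0.120). Cytosolic transferases bind some of the stress kinases and their partners, of which 10 of 12 listed were measured. Among these, 2 fell and 8 did not pass, where 1.69% of all genes fell. Their median was −0.02, and 4 had an unadjusted p under 0.05. MAP3K5, the kinase ASK1, fell by 0.66 ± 0.11 (adjusted p = 0.0153) and MAPK10, a JNK kinase, by 0.43 ± 0.08 (adjusted p = 0.0286). The MAP3K5 call was lost without knockdown replicate 1 or 3 or scrambled replicate 2 (adjusted p 0.0573 to 0.0679), and the MAPK10 call without any 1 array except scrambled replicate 3 (adjusted p 0.0553 to 0.119). TXNIP, which binds thioredoxin, had a difference of 0.74 ± 0.22 and did not pass (adjusted p = 0.112). TXNIP passed at 0.99 without scrambled replicate 1 (adjusted p = 0.0167) and with array weights (0.0032).

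**Figure D3:**
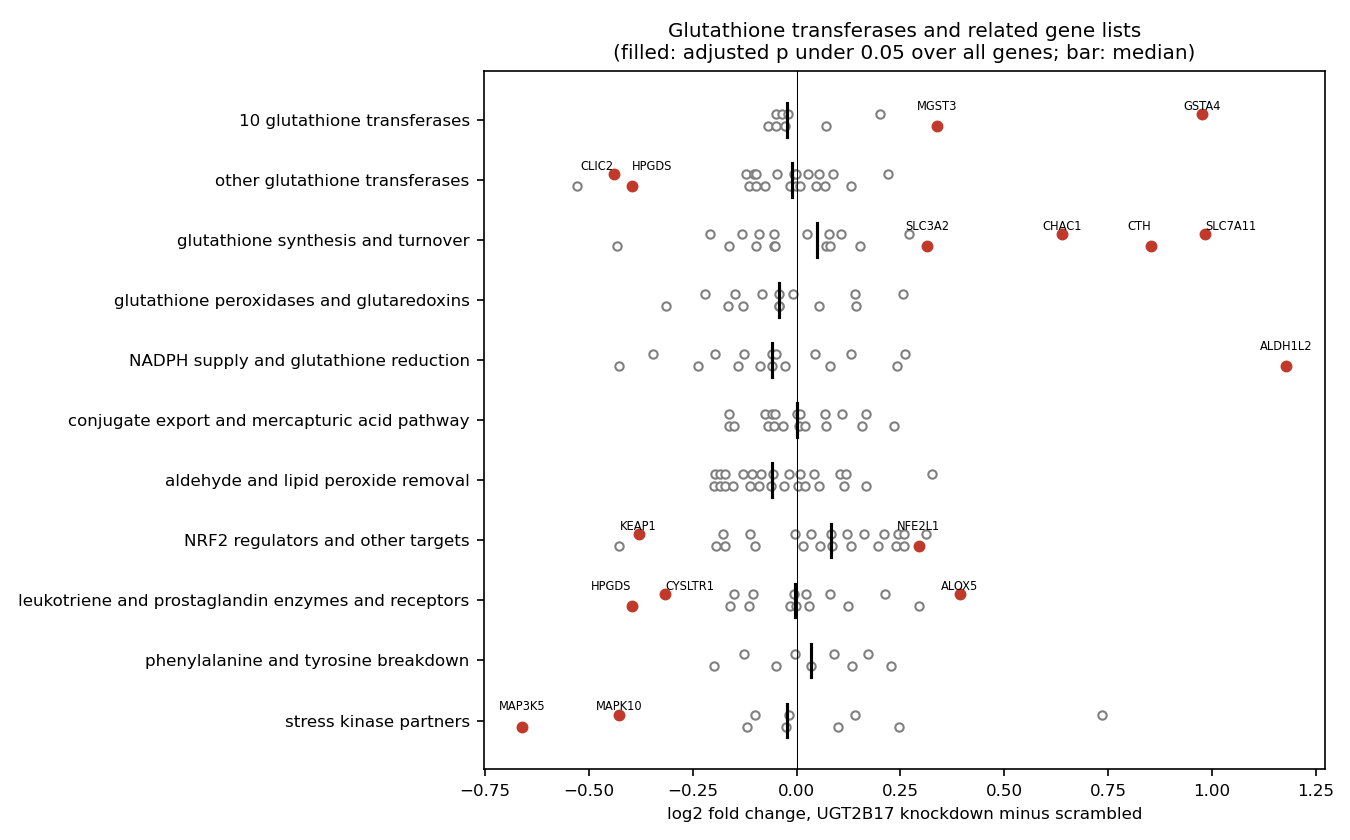
Log2 fold change, UGT2B17 knockdown minus scrambled shRNA, of the 10 glutathione transferases and of each measured gene of 10 related lists; filled points passed at an adjusted p under 0.05 over all genes and bars mark medians. List medians lie between −0.06 and 0.08, and the largest differences belong to ALDH1L2 (1.18), SLC7A11 (0.98) and GSTA4 (0.98).

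The calls of GSTA4 and MGST3 differed in how they stood up to processing, as the plot of differences by setting shows. GSTA4 passed without each of the 6 arrays in turn, with differences of 0.92 to 1.07, whereas MGST3 passed only without scrambled replicate 3, with differences of 0.28 to 0.38. The count of members called was 1 without any of the other 5 arrays. Over all genes, 152 to 188 were called without 1 of the knockdown arrays or scrambled replicate 2, and 694 and 759 without scrambled replicates 1 and 3, against 665 with all arrays. Of the other genes described as passing, CHAC1, SLC3A2, HPGDS, CLIC2, KEAP1, NFE2L1, ALOX5, CYSLTR1, MAP3K5 and MAPK10 also lost their call when all deposited probe sets were tested together (adjusted p 0.0550 to 0.140). Of these 10 genes, SLC3A2, KEAP1 and NFE2L1 lost it with arrays centred on their medians as well (adjusted p = 0.0707, 0.0516 and 0.0778).

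**Figure D4:**
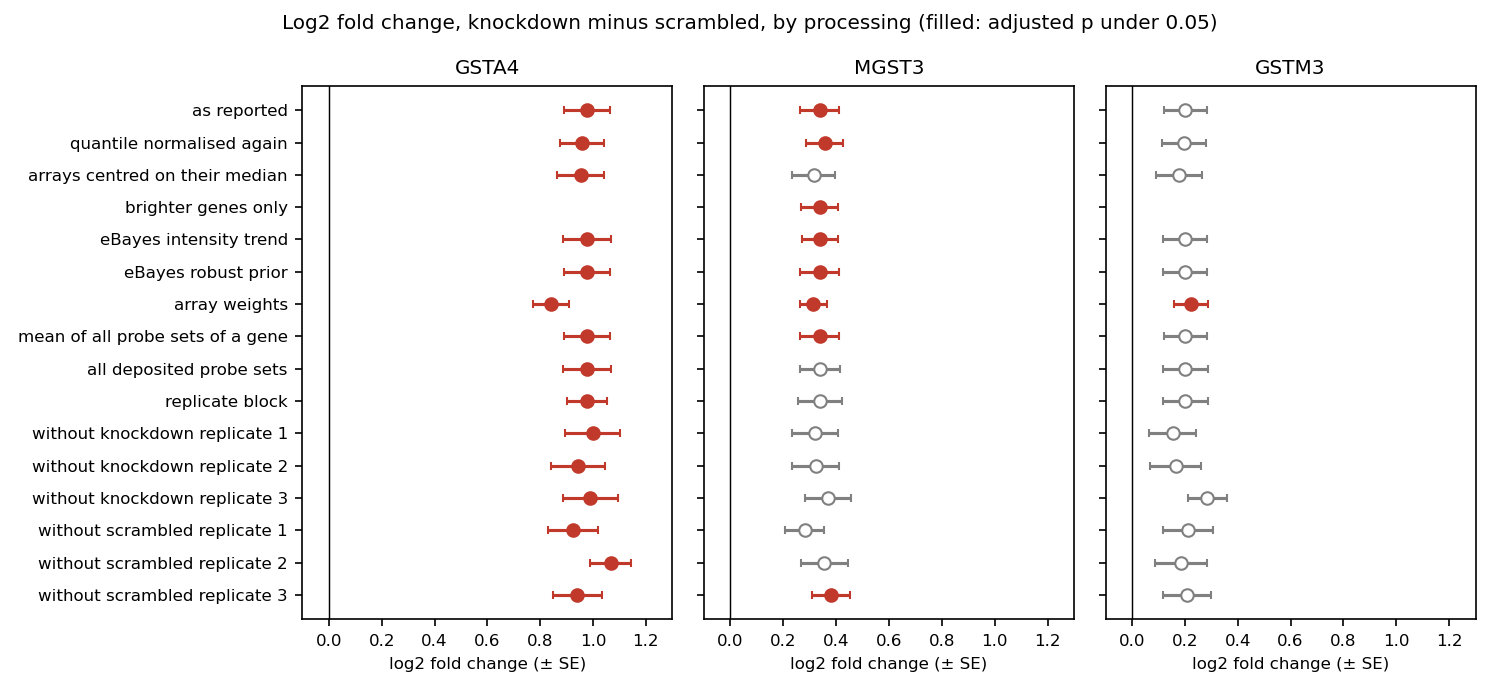
Log2 fold change (± SE), UGT2B17 knockdown minus scrambled shRNA, of GSTA4, MGST3 and GSTM3 as reported and under each processing alternative; filled points have an adjusted p under 0.05, and GSTA4 and GSTM3 have no point where only brighter genes were kept. GSTA4 is filled throughout, MGST3 in 8 of 16 settings and GSTM3 with array weights only.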

How the data were processed

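Total RNA was labelled with a whole-transcript biotin kit and hybridised to Affymetrix arrays, 1 per sample, per the labels. The authors deposited log2 values made with RMA, per the submitters' processing notes (version not given in the sources used here). RMA shrinks differences of dim probe sets. Probe sets were named through the platform annotation: 19158 had 1 symbol, and for 637 genes with several the one with the highest mean was kept, leaving 18404 genes. Knockdown was set against scrambled shRNA with limma 3.58.1 under R 4.3.3 (lmFit and eBayes, two-sided), without covariates. P-values were adjusted by Benjamini-Hochberg over all genes, with a threshold of 0.05. The fit was tested on simulated data for 18404 genes and this comparison: of 200 genes changed by 0.5 log2 units 69.0% were recovered, with 4.83% false calls, and of 200 changed by 1, 96.0%. The simulated noise was independent for each gene and array, so these shares need not hold where an array deviates over many genes. Precision is limited by 3 arrays per group.

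The 10 members and the gene lists were chosen with earlier results of these data known. Named are all members, UGT2B17, in each list the genes that passed and up to 3 with the smallest p, gene neighbours, and the 3 genes with profiles most like each member that passed; GSTA1, GSTA2, GSTA5, GSTM1, GSTT1, GPX4, GSR, GSS, GCLC, GCLM, ABCC1, HMOX1, TXNRD1 and KLRD1 were added after their values were seen. Alternatives covered normalisation, dim genes, the variance prior, array weights, probe sets, a replicate block, single arrays left out and an adjusted p under 0.1.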

Additional observations from a re-analysis of the deposited data

How the results depend on the processing

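Precision is limited by 3 arrays per group, and dim probe sets such as those of GSTM3 and MGST1 may understate any difference, which was not tested. The count of transferases called was 2 as reported. It was 1 with arrays centred on their medians, when all deposited probe sets were tested, with the replicate block (each keeping GSTA4) and among brighter genes (MGST3, GSTA4 not being tested there), and 1 to 2 with single arrays left out. The count of all genes called, 665, became 3511 with array weights, 165 of all probe sets, 367 with the replicate block, 1207 at an adjusted p under 0.1, and 152 to 759 with single arrays left out. Array weights, which rested the scrambled group mainly on replicate 2, gave further calls beyond those described with the genes. ACY3, FAHD2A, GCLM, PCBD1 and PTGR2 passed there as higher. AKR7A2, GDAP1, PGD, PRDX6 and TXNDC12 passed there as lower (limma, adjusted p 0.0088 to 0.0499 in both directions). Same-numbered arrays did not pair: their deviations correlated at −0.054, −0.067 and −0.033, no array correlated best with its own number, and with the replicate block 9 named genes lost their call: MGST3 (adjusted p = 0.101) and ALOX5, CYSLTR1, KEAP1, KRT18, MAPK10, NFE2L1, RAB31 and SLC3A2 (0.0508 to 0.0998). UGT2B17 fell in all 14 alternatives fitted. Of 67 named genes followed through the alternatives, 21 passed, 7 of them under every alternative fitted (GSTA4, UGT2B17, SLC7A11, CTH, ALDH1L2, FGFR1 and KLRD1), and 0 of the 21 changed direction. Differences of 10 genes that did not pass changed sign near 0. With array weights GSTA2 read −0.0051 and GSTK1 0.056, and with median centring LRRC52 read −0.0032. With single arrays left out, GSS ran from −0.15 to 0.0087, GSTK1 from −0.071 to 0.019, GSTP1 from −0.12 to 0.055, MGST1 from −0.10 to 0.0068, MGST2 from −0.057 to 0.028, GSTA2 from −0.0055 to 0.13, GSTM1 from −0.040 to 0.082, GSTM2 from −0.052 to 0.13 and GSTM5 from −0.044 to 0.051. The cause was not tested.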

Other observations

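The genes measured next to the transferases in the RefSeq gene order mostly did not pass. Of 20 distinct neighbours that are not members, 0 rose, 1 fell and 19 did not pass. SETD7, a lysine methyltransferase gene beside MGST2 on chromosome 4, read 7.14 ± 0.15 in knockdown cells and 7.69 ± 0.14 in scrambled cells (SD, n = 3 each), a fall of 0.55 ± 0.10 log2 units (SE; limma, adjusted p = 0.0223). Its call was lost without knockdown replicate 1 or 3 or scrambled replicate 2 (adjusted p = 0.0958, 0.0909 and 0.0657) and with all deposited probe sets (0.0923). Beside GSTA4 on chromosome 6, GSTA3 had a difference of −0.10 ± 0.09 and CILK1, a kinase gene, −0.13 ± 0.10, and neither passed (adjusted p = 0.593 and 0.552). Beside MGST3 on chromosome 1, LRRC52 had 0.02 ± 0.06 and ALDH9A1, an aldehyde dehydrogenase, −0.19 ± 0.07, and neither passed (adjusted p = 0.904 and 0.221).

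Over the 6 arrays, each profile centred on its own mean, the genes whose profiles lay closest to that of GSTA4 were SLC7A11, FGFR1, a fibroblast growth factor receptor, and CTH, at root mean square differences of 0.0755, 0.0888 and 0.0944 log2 units. Closest to MGST3 were RAB31, a small GTPase of vesicle transport, KRT18, a keratin, and ULBP3, a ligand of the NK cell receptor NKG2D, at 0.0248, 0.0339 and 0.0345. RAB31 read 9.03, 9.09 and 9.001 in the knockdown arrays, against 8.58, 8.71 and 8.75 in the scrambled arrays, so scrambled replicate 1 was its lowest array, as it was for MGST3. RAB31 rose by 0.36 ± 0.07 (SE; limma, adjusted p = 0.0293) and KRT18 by 0.32 ± 0.07 (adjusted p = 0.0494), and both calls were lost without any 1 of the knockdown arrays or scrambled replicate 1 or 2 (adjusted p 0.0566 to 0.135 and 0.0825 to 0.183). Both were also lost with arrays centred on their medians (0.0575 and 0.0976) and with all deposited probe sets (0.0962 and 0.139), and KRT18 with a robust prior (0.0515) and with the mean of its probe sets (0.133). ULBP3 did not pass (0.33 ± 0.08, adjusted p = 0.0666), but passed at 0.39 without scrambled replicate 3 (0.0354) and with array weights (0.0039). The likeness includes the difference between the groups, which chose these genes in part.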
